A study of Mus musculus with 85 samples.

Results

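Imprinted genes, 10 in number, were followed across the start of blood formation in the mouse embryo: Igf2, H19, Mest, Plagl1, Grb10, Meg3, Dlk1, Cdkn1c, Peg3 and Ndn. They were chosen by name, with every probe set of each. Of 18194 genes that the array named through a probe set with 1 symbol, 9 were members, on 36 of the array's 45101 probe sets. H19 had a single probe set, which is listed to both H19 and Mir675, a microRNA gene inside H19. It names neither gene here, so it is described as the H19/Mir675 probe set and kept out of counts of members, which are of 9. All 9 were among the 10695 genes above background in at least 3 cells, called measured genes below.

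The study sorted 85 single cells after collagenase dissociation and hybridised the amplified RNA of each to its own whole-genome Affymetrix array. There were 5 populations. The endothelial cells (EC) numbered 7, and so did the hemogenic endothelial cells (HEC), the endothelium from which blood arises. Both came from the caudal part of embryonic day (E) 10.5 embryos carrying the eR1-GFP reporter, driven by an enhancer of Runx1. They were sorted as CD31+ without Ter119, CD45 and CD41, the EC as reporter-negative and the HEC as reporter-positive. Cluster cells, from the hematopoietic clusters that bud from the aortic wall, were wild type and carried c-Kit, CD31 and CD45 without SSEA1. There were 28 from the E10.5 caudal part and 16 from the E12.5 aorta-gonad-mesonephros region. Fetal liver hematopoietic stem cells (HSC, 27 arrays) were wild type, from E14.5, and carried CD150, c-Kit, Sca-1 and Mac-1 without CD48 and lineage markers. The reporter genotype was shared by EC and HEC only, so it cannot be told apart from the difference between endothelium and the wild type populations.

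Each array is 1 cell, and the labels name no animal, litter or culture. A population therefore counts as 1 sample, no test was made, and every SD is a spread over cells. Values are the deposited log2 expression values. Above background, or on, means a value over 5. A gene was called higher or lower where its mean log2 values differed by 1 or more. HSC cells 20 and 21 held nearly the same values and were averaged and counted as 1, which left 84 cells, 26 of them HSC.

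In 6 cells the genes went against the sort. EC cell 3 had 2 of 12 endothelial markers above background, 5 of 7 germ cell markers, and Cdh5 (VE-cadherin) at 2.32 beside the germ cell genes Dppa3 at 14.59 and Pou5f1 at 13.96. E12.5 cluster cells 3, 6 and 10 had all 9 macrophage markers above background, with the complement gene C1qb at 15.69, 15.59 and 15.88. HSC cells 5 and 7 had 11 and 12 of 12 endothelial markers and 0 of 12 hematopoietic markers, with Lyve1, a gene of liver sinusoids and lymphatic vessels, at 15.05 and 14.73. They were kept, and results that rest on them are given without them too. The mean number of probe sets above background per cell was 5905 in EC, 7712 in HEC, 9943 in E10.5 clusters, 7820 in E12.5 clusters and 6552 in HSC. Markers of mesenchymal and mural cells were above background for at most 1 of 14 genes in any cell.

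Imprinted genes are expressed mainly from the copy inherited from 1 parent, which is set by DNA methylation laid down in the germ line and kept afterwards by proteins such as ZFP57 and TRIM28. Many act on growth: Igf2 is a growth factor of the embryo, and Grb10, Cdkn1c and H19 hold growth back. In adult blood stem cells several of these genes are known as part of a network linked to quiescence. The arrays measure total RNA of a gene and do not separate the parental copies.

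The promoters of some members that were on in most endothelial cells are shown first, so that their CG content can be compared. Grb10 and Ndn, on in 13 and 14 of 14 endothelial cells, are not shown, and their CG counts are given below. Each is the 250 bases before a gene start, in the direction of the gene, from RefSeq on build GRCm38.p6, with CG dinucleotides, the sites of DNA methylation, in capitals. Where a gene had several starts, the window with the most CG is shown. Igf2 lies on the minus strand at chr7:142658805-142659054, Mest on the plus strand at chr6:30737800-30738049, Plagl1 on the plus strand at chr10:13090582-13090831, Meg3 on the plus strand at chr12:109540746-109540995 and Peg3 on the minus strand at chr7:6730420-6730669.
Igf2: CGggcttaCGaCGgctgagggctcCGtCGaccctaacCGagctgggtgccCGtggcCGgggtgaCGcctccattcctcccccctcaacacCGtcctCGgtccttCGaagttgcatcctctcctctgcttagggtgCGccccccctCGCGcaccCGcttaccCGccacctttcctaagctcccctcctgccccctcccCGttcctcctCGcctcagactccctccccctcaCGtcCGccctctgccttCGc
Mest: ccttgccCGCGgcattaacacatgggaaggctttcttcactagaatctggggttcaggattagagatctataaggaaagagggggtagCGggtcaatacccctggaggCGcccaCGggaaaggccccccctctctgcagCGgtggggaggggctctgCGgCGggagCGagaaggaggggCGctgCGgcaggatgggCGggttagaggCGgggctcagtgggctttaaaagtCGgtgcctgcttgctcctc
Plagl1: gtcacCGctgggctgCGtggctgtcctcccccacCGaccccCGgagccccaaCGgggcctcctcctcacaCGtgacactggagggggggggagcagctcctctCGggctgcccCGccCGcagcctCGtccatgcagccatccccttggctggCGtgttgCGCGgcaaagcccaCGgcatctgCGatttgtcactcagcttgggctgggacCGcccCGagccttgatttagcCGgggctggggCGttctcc
Meg3: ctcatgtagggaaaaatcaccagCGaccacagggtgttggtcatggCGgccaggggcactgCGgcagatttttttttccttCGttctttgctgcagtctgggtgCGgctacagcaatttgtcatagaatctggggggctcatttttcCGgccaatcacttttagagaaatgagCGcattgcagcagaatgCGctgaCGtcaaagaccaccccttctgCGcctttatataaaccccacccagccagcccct
Peg3: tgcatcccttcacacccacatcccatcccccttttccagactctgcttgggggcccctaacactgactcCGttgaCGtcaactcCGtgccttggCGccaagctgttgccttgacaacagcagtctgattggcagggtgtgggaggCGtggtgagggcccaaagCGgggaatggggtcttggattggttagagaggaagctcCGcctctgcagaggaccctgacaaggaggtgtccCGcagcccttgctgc

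These windows hold 22 CG in Igf2, 14 in Mest, 19 in Plagl1, 10 in Meg3 and 8 in Peg3, the most of each gene's windows. Other windows hold 1, 6 and 10 in Igf2, 7 and 14 in Mest and 0 in Meg3, and the median over all 32851 promoter windows of the same length, with none picked for CG, is 6. Among the other members, the most CG-rich window held 40 in Grb10, 8 in Dlk1 and 5 in Ndn. Windows were found for 8 members, 15 windows in all, and none for H19 and Cdkn1c. The hexamer TGCCGC, which ZFP57 binds when methylated, was searched on both strands and is in 4 of the 15 windows, against 8.68% of all windows. Mest holds it at bases 9 to 14 and 184 to 189 of its window, Plagl1 at 161 to 166 and Meg3 at 61 to 66, each on the opposite strand, and the remaining window is a second Mest start that overlaps the one shown. The palindrome GGGGCCCC, a motif of the PLAGL1 zinc finger protein, is in the Peg3 window at bases 50 to 57 and in no other of the 15, against 0.889% of all windows. These are matches of letters and not measured binding sites.

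Members also host microRNAs, which the arrays do not measure. Of the 9 mature sequences listed in H19, Igf2, Mest and Meg3, 5 are shown as examples, at least 1 from each gene, written 5′ to 3′ with the seed, bases 2 to 8, in capitals. No seed is shared between them.
miR-675-5p, in H19: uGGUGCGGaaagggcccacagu
miR-675-3p, in H19: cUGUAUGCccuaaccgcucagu
miR-483-3p, in Igf2: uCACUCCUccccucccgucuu
miR-335-5p, in Mest: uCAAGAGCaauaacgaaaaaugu
miR-770-5p, in Meg3: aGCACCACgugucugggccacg

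Most members were on in most endothelial cells and off in most cluster cells, and part of them were on in HSC. The exceptions were Dlk1, on in 1 of 14 endothelial cells, and Ndn and Grb10, on in 38 and 22 of 44 cluster cells. Grb10 was an exception at E10.5 only, on in 18 of 28 cells there and in 4 of 16 at E12.5. The Ndn count is of the probe set it was read from. The best of its other probe sets were on in 14 of 28 and 6 of 16 cells. Of the 9, a median of 7 were above background per EC (range 4 to 8) and 8 per HEC (6 to 9). E10.5 cluster cells held a median of 2 (1 to 7), E12.5 cluster cells 2 (1 to 5) and HSC 4.5 (2 to 7). The cell with all 9 above background was an HEC, with Dlk1 at 5.06, just over the threshold of 5. Members were above background in 74.6% of values in EC, 84.1% in HEC, 31.0% in E10.5 clusters, 21.5% in E12.5 clusters and 50.9% in HSC. The same share over all measured genes ran the other way into the clusters, at 32.4%, 43.1%, 55.2%, 43.8% and 37.1%. Cluster cells thus had the lower share for members in spite of as many or more genes detected in all.

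**Figure D1:**
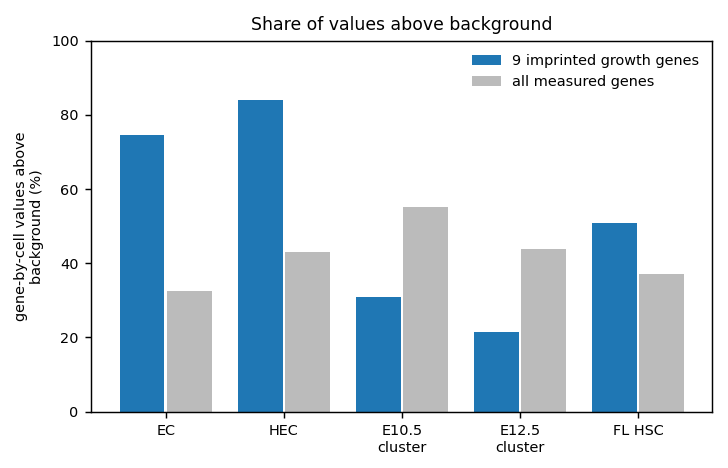
Share of values above background (y axis, percent) in each population (x axis), for the 9 members and for all 10695 measured genes. The members fall from 84.1% in HEC to 31.0% in E10.5 clusters while all genes go from 43.1% to 55.2%, and the members stand at 50.9% in HSC.

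**Figure D2:**
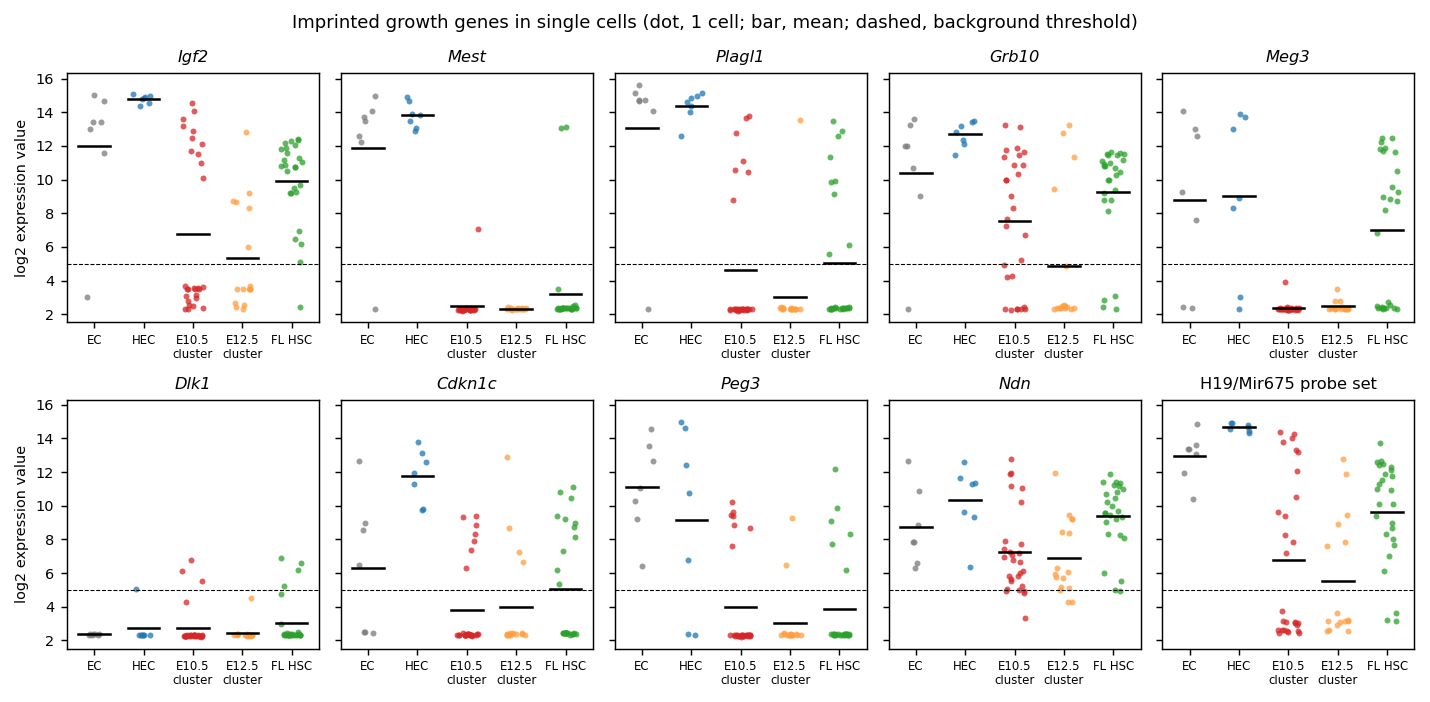
Log2 expression value (y axis) of the 9 members and the H19/Mir675 probe set in each of 84 cells (dots) by population (x axis, FL HSC for fetal liver HSC), with the mean over cells (bar) and the background threshold of 5 (dashed). Igf2, Mest, Plagl1 and Grb10 share 1 EC at the bottom of the scale, and Mest is at the bottom in almost all cluster cells and HSC. Ndn, on the probe set shown, lies above the threshold in most cells of every population.

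Igf2 encodes insulin-like growth factor 2, expressed from the paternal copy. In EC it ran from 3.0 through a median of 13.42 to 15.02, and in HEC from 14.35 through 14.84 to 15.05. In E10.5 clusters the lowest, median and highest values were 2.31, 3.54 and 14.56, in E12.5 clusters 2.34, 3.52 and 12.80, and in HSC 2.40, 10.79 and 12.40. HEC were uniformly high, E10.5 cluster cells were split between high and background, and nearly all HSC were at intermediate values. The E12.5 cluster cells above background ran from 6.01 through a median of 8.71 to 12.80. The HSC above background had a median of 10.83. Cells above background were 6 of 7 EC, 7 of 7 HEC, 11 of 28 cells of E10.5 clusters (39.3%, exact 95% binomial interval 21.5 to 59.4%), 6 of 16 cells of E12.5 clusters and 25 of 26 HSC (96.2%, 80.4 to 99.9%). Such intervals cover counting error over cells only. The means were 12.01 ± 4.13 (SD, n = 7) in EC, 14.78 ± 0.25 (n = 7) in HEC, 6.76 ± 4.76 (n = 28) in E10.5 clusters, 5.31 ± 3.21 (n = 16) in E12.5 clusters and 9.91 ± 2.55 (n = 26) in HSC. No step between neighbours in this order of means exceeded the pooled SD over cells. Over non-adjacent populations, no HSC reached the lowest HEC: all 26 lay below it. How many of all measured genes separate in this way is not given. In the E10.5 clusters no cell lay between 3.67 and 10.07, so the mean describes none of them. Igf2 was taken from 1 probe set, and its other probe set was above background in no cell.

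H19 is a maternally expressed noncoding RNA that shares an enhancer region with Igf2, and Mir675 is processed from it. The H19/Mir675 probe set ran from 10.43 through 13.39 to 14.85 in EC and from 14.30 through 14.70 to 14.94 in HEC. Its lowest, median and highest values were 2.45, 3.44 and 14.41 in E10.5 clusters, 2.54, 3.19 and 12.81 in E12.5 clusters, and 3.18, 10.51 and 13.72 in HSC. Every endothelial cell was above background, as were 13 of 28, 6 of 16 and 23 of 26 cells of the other populations. Its mean differed from HEC to EC by 1.71 against a pooled SD of 1.01, and from EC to HSC by 3.30 against 2.37, both beyond the spread over cells. The difference between HEC and EC depended on scaling. It was 0.73, not called, after each cell was shifted to an equal median signal, and 1.06 with quantile normalization.

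Igf2 and the H19/Mir675 probe set were mostly on or off in the same cells. In E10.5 clusters 11 cells had both, 0 had Igf2 alone, 2 had the H19/Mir675 probe set alone and 15 had neither, so 26 of 28 cells were in the same state. In HSC the counts were 23, 2, 0 and 1, and over those 26 cells the values went with r = 0.70 (Spearman 0.74), given as a description of cells whose preparations are not named. In E12.5 clusters they were 4, 2, 2 and 8, the loosest match of the 5 populations. EC cell 3, the cell with germ cell genes, had the H19/Mir675 probe set at 13.07 and Igf2 at background.

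**Figure D3:**
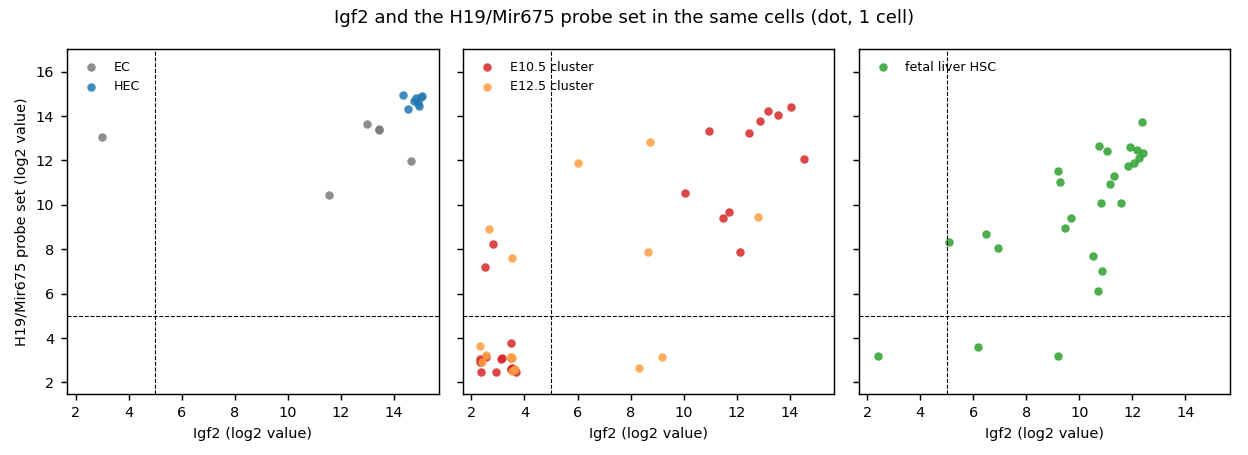
Log2 value of Igf2 (x axis) against that of the H19/Mir675 probe set (y axis) in each cell (dots), in 3 panels by population, with the threshold of 5 dashed. In E10.5 clusters 11 cells lie in the upper right and 15 in the lower left, and 1 EC lies in the upper left.

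Mest encodes an alpha/beta hydrolase-like protein and is paternally expressed. It ran from 2.32 through 13.46 to 14.94 in EC and from 12.91 through 13.86 to 14.92 in HEC. The highest E10.5 cluster cell, cell 11, stood at 7.06 and the median at 2.29, and in E12.5 clusters the highest value was 2.42. In HSC the median was 2.35 and the highest 13.10. Mest was thus on in 13 of 14 endothelial cells and in 1 of 44 cluster cells. The 2 HSC above background, at 13.05 and 13.10, were cells 5 and 7, those with endothelial and no hematopoietic markers. Without them Mest was above background in 0 of 24 HSC. The means were 11.90 ± 4.32 (SD, n = 7) in EC, 13.83 ± 0.75 (n = 7) in HEC, 2.46 ± 0.90 (n = 28) in E10.5 clusters, 2.32 ± 0.04 (n = 16) in E12.5 clusters and 3.23 ± 2.91 (n = 26) in HSC. The step from EC to HSC, 8.67, exceeded the pooled SD of 3.68, and the other neighbours in the order did not differ beyond their spread.

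Plagl1 encodes a zinc finger transcription factor, paternally expressed, that activates other imprinted genes. In EC its lowest, median and highest values were 2.33, 14.73 and 15.64, and in HEC 12.61, 14.61 and 15.12. In E10.5 clusters the median was 2.3 and the highest 13.77, in E12.5 clusters 2.32 and 13.56, and in HSC 2.37 and 13.47. Most cluster cells and HSC were therefore at background. Single cells lay above the lowest HEC, at 12.61, but none reached the HEC median of 14.61. It was on in 6 of 7 EC and 7 of 7 HEC, and in 7 of 28 cells of E10.5 clusters, 1 of 16 cells of E12.5 clusters and 9 of 26 HSC, or 7 of 24 HSC without cells 5 and 7. The step from the EC mean of 13.04 ± 4.75 (SD, n = 7) to the HSC mean of 5.03 ± 4.08 (n = 26), 8.01, exceeded the pooled SD of 4.43. A second Plagl1 probe set was above background in 11 of the 30 cells where the first was, and in no other.

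Grb10 encodes an adaptor protein that inhibits insulin and IGF receptor signalling and is maternally expressed in most tissues. Its lowest, median and highest values were 2.32, 11.96 and 13.61 in EC and 11.46, 12.82 and 13.47 in HEC. They were 2.27, 7.99 and 13.22 in E10.5 clusters, 2.31, 2.46 and 13.21 in E12.5 clusters, and 2.33, 10.58 and 11.64 in HSC. Of the members on in endothelium, Grb10 was, with Ndn, on in most E10.5 cluster cells, 18 of 28, and it was on in 4 of 16 cells of E12.5 clusters and 22 of 26 HSC. All populations overlapped, and no step in the order of means exceeded the pooled SD. The largest step, 2.63 from the E10.5 mean of 7.51 ± 3.93 (SD, n = 28) to the E12.5 mean of 4.88 ± 4.18 (n = 16), compared with a pooled SD of 4.06.

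Cdkn1c encodes p57, a cyclin-dependent kinase inhibitor that stops the cell cycle, and is maternally expressed. It was on in 4 of 7 EC and in 7 of 7 HEC. EC ran from 2.47 through 6.47 to 12.64 and HEC from 9.76 through 11.94 to 13.81. E10.5 clusters had a median of 2.35 and a highest value of 9.39, E12.5 clusters 2.40 and 12.92, and HSC 2.45 and 11.09. Every HEC was above every E10.5 cluster cell, a separation not set beside that of all measured genes. The HEC mean of 11.76 ± 1.58 (SD, n = 7) exceeded the EC mean of 6.31 ± 4.0 (n = 7) by 5.46, beyond the pooled SD of 3.04. It was above background in 7 of 28 cells of E10.5 clusters, 4 of 16 cells of E12.5 clusters and 11 of 26 HSC.

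Meg3 is a maternally expressed noncoding RNA from the same imprinted region as Dlk1. Its lowest, median and highest values were 2.38, 9.28 and 14.07 in EC, 2.34, 8.92 and 13.91 in HEC, and 2.33, 8.44 and 12.48 in HSC. The highest cluster cell stood at 3.91 at E10.5 and 3.51 at E12.5. Meg3 was thus on in 5 of 7 EC, 5 of 7 HEC and 15 of 26 HSC, and in 0 of 44 cluster cells, which allows a share of up to 8.04% (exact 95% interval). The HSC mean of 6.98 ± 4.22 (SD, n = 26) exceeded the E12.5 mean of 2.46 ± 0.32 (n = 16) by 4.52, beyond the pooled SD of 2.99. Without HSC cells 5 and 7 it was on in 14 of 24 HSC. Of 11 Meg3 probe sets, 7 were above background in some cell. The next best, above background in 22 of the 25 cells, went with the first at r = 0.95 over 84 cells. It was on in 13 of 26 HSC, another probe set in 10 and another in 4. The one on in 4 HSC was on in 5 of 7 EC and 4 of 7 HEC. On these probe sets HSC exceeded E12.5 clusters by 3.85, 2.69 and 1.14. The share of HSC with Meg3 and the size of the difference thus depended on the probe set. No Meg3 probe set was above background in a cluster cell.

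Dlk1 encodes a membrane protein related to Notch ligands, paternally expressed. On its brighter probe set it was on in few cells, in 0 of 7 EC, 1 of 7 HEC, 3 of 28 cells of E10.5 clusters, 0 of 16 cells of E12.5 clusters and 4 of 26 HSC. Its median was between 2.29 and 2.37 in every population and its highest value 6.90, in an HSC. Its other probe set was above background in 2 HSC, the higher at 8.42, and in no other cell, so Dlk1 was on by either probe set in 5 of 26 HSC. In HSC 2 cells had both Dlk1 and Meg3, 2 had Dlk1 alone, 13 had Meg3 alone and 9 had neither. In E10.5 clusters the 3 cells with Dlk1 lacked Meg3. The region was therefore seen mostly through Meg3.

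Peg3 encodes a zinc finger protein, paternally expressed. It ran from 6.40 through 11.09 to 14.54 in EC and from 2.34 through 10.79 to 14.96 in HEC. Cluster cells and HSC had medians of 2.31, 2.33 and 2.37 and highest values of 10.24, 9.26 and 12.19. Peg3 was the member with a higher mean in EC, 11.11 ± 2.79 (SD, n = 7), than in HEC, 9.18 ± 5.4 (n = 7), with 7 and 5 cells above background. The difference was within the pooled SD of 4.30, while the step from HEC to the E10.5 mean of 4.01 ± 3.04 (n = 28), 5.17, exceeded its pooled SD of 4.38. It was on in 7 of 28, 2 of 16 and 6 of 26 cells of the later populations.

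Ndn encodes necdin, a MAGE family protein that restrains cell division, paternally expressed. Its lowest, median and highest values were 6.33, 7.86 and 12.65 in EC, 6.37, 11.30 and 12.58 in HEC, 3.31, 6.71 and 12.80 in E10.5 clusters, 4.26, 6.03 and 11.92 in E12.5 clusters, and 4.95, 9.66 and 11.88 in HSC. On the probe set it was read from, Ndn was above background in all 14 endothelial cells, 24 of 28 and 14 of 16 cluster cells and 25 of 26 HSC, more cells than any other member in the clusters. No step in the order of means exceeded the pooled SD. The other Ndn probe sets were above background in fewer cells: the best 2 of them in 54 of the 77 cells, with r = 0.92 over 84 cells. Those 2 were each above background in 14 of 28 cells of E10.5 clusters and 6 of 16 cells of E12.5 clusters. Many of the cluster values just over 5 therefore rest on 1 probe set.

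**Figure D4:**
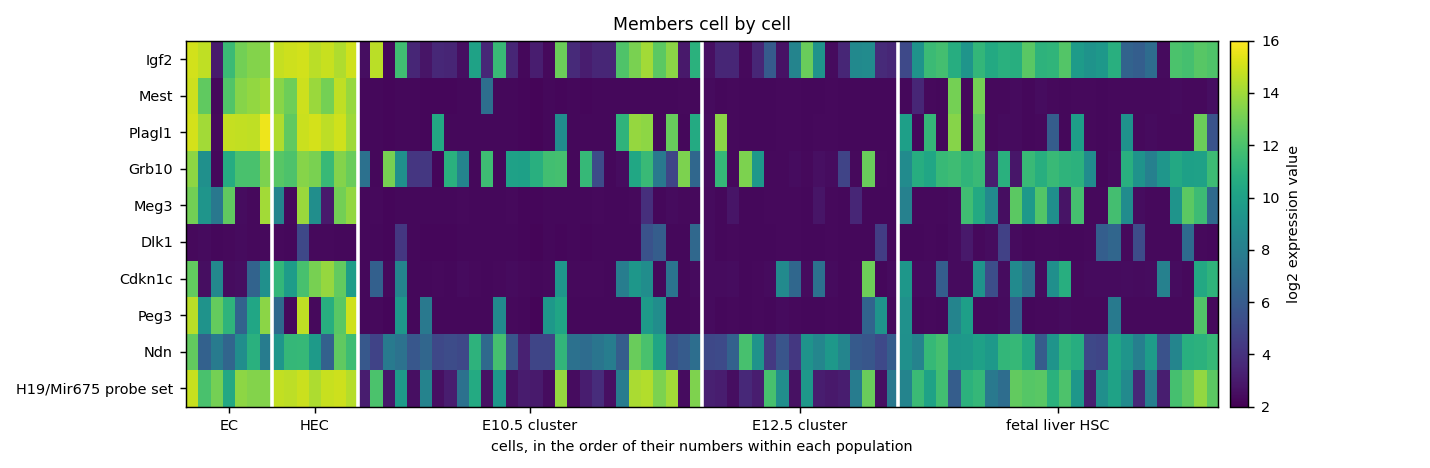
Log2 expression value (colour) of the 9 members and the H19/Mir675 probe set (rows) in each of 84 cells (columns, by cell number within the 5 populations). Endothelial cells are bright for most rows. Cluster cells are mostly dark except for Ndn and part of the cells for Grb10, Igf2 and the H19/Mir675 probe set. HSC are bright for Igf2, Grb10, Ndn and the H19/Mir675 probe set.

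Adjacent populations on the route from endothelium to HSC were compared, and HSC also with HEC and E10.5 clusters. The 6 comparisons share populations, so they are not independent. Each count of called members below is set beside the percentage of all measured genes called the same way. Counts of cells that lie above or below another population are given for members only.

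HEC differed from EC by higher means of 6 of 9 members, where 45.9% of all measured genes were higher, and by a lower mean of Peg3, where 7.36% were lower. The median of the members was 1.60 and that of all measured genes 0.82. Cdkn1c was higher by 5.46, Igf2 by 2.76, Grb10 by 2.29, Mest by 1.93, Ndn by 1.60 and Plagl1 by 1.32. The calls of 3 of these rested on EC cell 3, which had them at background. Without it 3 members were higher, Cdkn1c by 5.83, Ndn by 1.46 and Igf2 by 1.26, while Mest differed by 0.33, Grb10 by 0.95 and Plagl1 by -0.46, and the median was 0.35. The count was also 3 after either rescaling of the cells, with Mest, Plagl1 and Ndn the ones no longer called. The Peg3 difference was -0.16 with the mean of its probe sets, -0.30 with medians over cells, and -0.78 and -0.79 without HEC cell 2 or 4, none of them called. Meg3, at 0.26, was called higher without EC cell 7 (1.14), HEC cell 2 (1.38) or HEC cell 5 (1.26). The groups of cells overlapped for every member. Probe sets above background were also more numerous in HEC than in EC, and the part of that in the difference was not tested.

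E10.5 cluster cells were lower than HEC for 8 of 9 members, where 15.7% of all measured genes were lower. The count was 0 for higher members, where 43.1% of all measured genes were higher. The median of the members was -6.66 and that of all measured genes 0.71. Mest, at -11.37, had the lowest difference of all 10695 measured genes. Plagl1 differed by -9.75, Igf2 by -8.01, Cdkn1c by -7.96, Meg3 by -6.66, Grb10 by -5.18, Peg3 by -5.17 and Ndn by -3.09, and Dlk1 by 0.05. All 28 cluster cells lay below every HEC for Mest and Cdkn1c, 27 did for Igf2, 25 for Plagl1, 22 for Grb10, 21 for Meg3, 20 for Peg3 and 13 for Ndn. These counts of cells are not set beside those of all measured genes, so they describe the members only. The 12 endothelial markers were all lower too, with a median of -7.09, and the 12 hematopoietic markers all higher, with a median of 8.41. Summed endothelial marker values ran from 136.9 to 158.7 in HEC and from 40.2 to 117.6 in E10.5 clusters, and 1 of the 12 was above background in no E10.5 cluster cell. Their part in the members' difference was not tested.

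E12.5 cluster cells were lower than E10.5 cluster cells for 3 of 9 members, where 39.9% of all measured genes were lower, and higher for 0, where 5.47% were higher. The share of members was near that of all genes. Grb10 differed by -2.63, Plagl1 by -1.58 and Igf2 by -1.45, with a median of -0.34 over members and -0.66 over all measured genes. The 2 sets of cells overlapped for every member. With quantile normalization Igf2 differed by -0.47 and was not called. Without the 3 cells with macrophage markers, Igf2 was on in 4 of 13 and Grb10 in 4 of 13 E12.5 cluster cells. When each gene was summarised by the mean of its probe sets, the count was 0, and by medians over cells it was 1.

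HSC were higher than E12.5 cluster cells for 6 of 9 members, where 7.91% of all measured genes were higher, and lower for 0, where 36.9% were lower. The median of the members was 2.0 and that of all measured genes -0.54. Igf2 was higher by 4.60, Meg3 by 4.52, Grb10 by 4.40, Ndn by 2.48, Plagl1 by 2.0 and Cdkn1c by 1.08. The calls of Plagl1 and Cdkn1c did not hold under every setting. Plagl1 was higher by 1.17 without the 6 cells, and by 0.78 with the mean of its probe sets and 0.050 with medians over cells, neither of them called. Cdkn1c was higher by 0.98 with no arrays averaged and 0.056 with medians over cells, neither called. With medians over cells the median of the members was 0.06, since the typical cell of both populations was at background for 5 of them. Endothelial markers were also higher in HSC for 10 of 12 genes, with a median of 1.88, and their summed values ran from 31.9 to 59.3 in E12.5 clusters and from 46.0 to 132.1 in HSC. The top of the HSC range was cells 7 and 5, at 132.1 and 127.8, and the next was cell 4 at 79.6. The marker count and median include cells 5 and 7. The part of the endothelial markers in the members' difference was not tested. Hepatocyte markers were above background for at most 2 of 10 genes in any HSC.

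HSC were higher than E10.5 cluster cells for 5 of 9 members, where 5.01% of all measured genes were higher, and lower for 0, where 55.5% were lower. Meg3 was higher by 4.62, Igf2 by 3.14, Ndn by 2.15, Grb10 by 1.77 and Cdkn1c by 1.27, while Mest differed by 0.77, Plagl1 by 0.42, Dlk1 by 0.29 and Peg3 by -0.14. Grb10 was not called with the mean of its probe sets (0.60), nor Cdkn1c with medians over cells (0.11). For Meg3, 15 of 26 HSC lay above every E10.5 cluster cell, a count not set beside that of all measured genes. The median was 1.27 over members and -1.29 over all measured genes, so part of the members, not all, were higher in HSC. Against HEC, HSC were lower for 7 of 9 members, where 39.4% of all measured genes were lower, and higher for 0, where 14.3% were higher, with medians of -4.87 and -0.51. Mest differed by -10.60, below which no measured gene lay, Plagl1 by -9.33, Cdkn1c by -6.69, Peg3 by -5.32, Igf2 by -4.87, Grb10 by -3.40 and Meg3 by -2.04. Meg3 was not called with medians over cells (-0.49), and leaving out single HEC moved it between -3.16 (without cell 2) and -1.23 (without cell 3). The Meg3 probe sets on in 13, 10 and 4 HSC differed by -2.53, -2.79 and -4.95. Ndn, at -0.95, and Dlk1, at 0.34, were not called, though Ndn was called lower without HEC cell 1 (-1.11), 4 (-1.06) or 5 (-1.60). The other Ndn probe sets above background in some cell differed by -1.23, -1.10, -1.01 and -0.90.

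**Figure D5:**
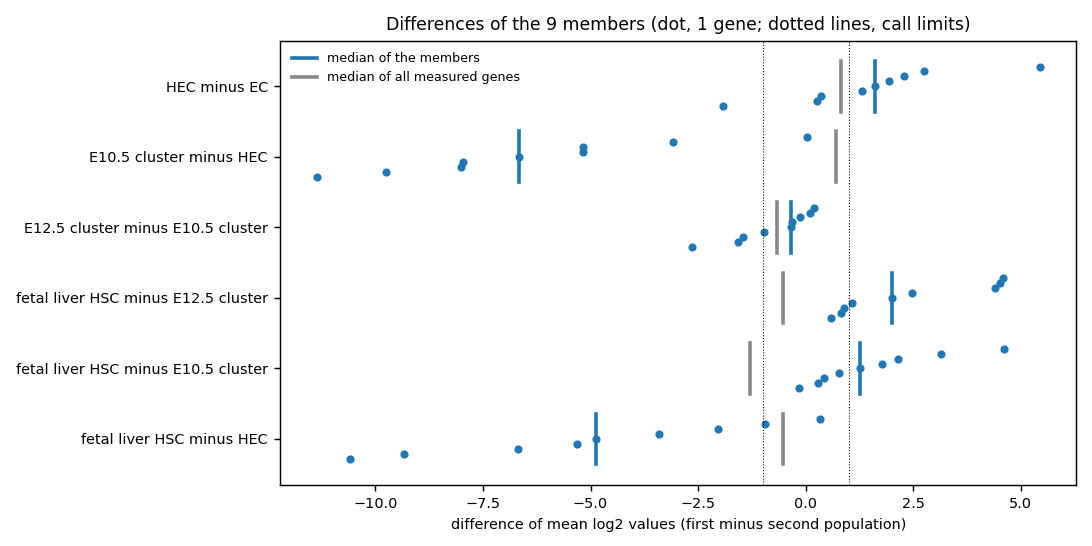
Difference of mean log2 values (x axis) of each of the 9 members (dots) in the 6 comparisons (rows), with the median of the members (blue bar), the median of all 10695 measured genes (grey bar) and the call limits (dotted). The members' median lies at -6.66 for E10.5 clusters against HEC and at 2.0 for HSC against E12.5 clusters, on the other side of zero from all genes in both.

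Within the E10.5 clusters the members were not spread evenly over cells. Igf2 was above background in cells 2, 4, 10, 12, 17, 22, 23, 24, 25, 26 and 28. All 7 cells with Cdkn1c were among these 11, as were all 3 with Dlk1 and 6 of the 7 with Plagl1. Grb10, on in 18 of all 28 cells, showed no such grouping. Of its 18 cells 6 were among the 11, and it went with Igf2 at r = -0.21. Cells with 7 or more of the 12 endothelial markers above background numbered 6, a limit chosen after the values were seen, and all 6 had Igf2, 5 had Plagl1 and 4 had Cdkn1c. Of the 10 cells with 3 or fewer endothelial markers, 1 had Igf2, 1 Plagl1 and 1 Cdkn1c, while 7 had Grb10. Even the cell with 11 of 12 endothelial markers, cell 17, did not have Mest or Meg3. All of these cells carried at least 10 of the 12 hematopoietic markers.

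Other imprinted genes moved in both directions. Of 48 named, 42 were on the array and 24 measured. From HEC to E10.5 clusters 4 were higher, where 43.1% of all measured genes were, and 8 lower, where 15.7% were. Their median was -0.19 against 0.71 over all measured genes and -6.66 over the members. From E12.5 clusters to HSC 5 were higher, where 7.91% of all measured genes were, and 2 lower, where 36.9% were, with a median of 0.37 against -0.54. In both comparisons the medians of these genes thus lay on the members' side of the median of all genes, at smaller differences. Among those lower in clusters, Asb4 differed by -6.96, Igf2r, the receptor that removes IGF2 from the cell surface, by -5.22, Sgce by -4.93 and Slc38a4 by -3.69. Igf2r was higher again in HSC than in E12.5 clusters, by 2.93. Those higher in clusters included Ube3a, by 2.65, and Kcnq1ot1, the noncoding RNA of the Cdkn1c region, by 2.57. Gnas was above background in all 84 cells.

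Genes near the members did not all follow them, as 5 examples chosen after their values were seen show. Mrpl23, a mitochondrial ribosomal protein gene on the far side of H19 from Igf2 in RefSeq's order, was on in 4 of 7 EC and 4 of 7 HEC, and in all 44 cluster cells and 25 of 26 HSC. Copg2, next to Mest, was on in 0 of 7 EC and 0 of 7 HEC. Ikzf1, a lymphoid and blood factor near Grb10, was on in 0 of 7 EC, 1 of 7 HEC and 28 of 28 cells of E10.5 clusters. Igf2os, next to Igf2, was on in 1 of 7 EC, 1 of 7 HEC, 0 of 44 cluster cells and 3 of 26 HSC. LOC102631979, next to Grb10, had its highest mean in HEC, 5.17, and was on in 0 of 16 cells of E12.5 clusters.

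In the IGF and insulin pathway, 24 of 32 listed genes were measured. From EC to HEC 13 were higher, where 45.9% of all measured genes were, and 2 lower, where 7.36% were. From E12.5 clusters to HSC 2 were higher and 7 lower, where 7.91% and 36.9% of all measured genes were. Both pairs of counts were near the shares of all genes. From HEC to E10.5 clusters 9 were higher and 9 lower, where 43.1% and 15.7% were. The secreted binding proteins Igfbp3 and Igfbp2, which hold IGFs outside cells, differed by -7.75 and -6.83 from HEC to E10.5 clusters, and were above background in 0 of 26 HSC. The receptor Igf1r was on in 4 of 7 HEC, 21 of 28 cells of E10.5 clusters and 20 of 26 HSC. Igf2bp3, an RNA-binding protein that binds Igf2 transcripts, dropped by 4.80 from E12.5 clusters to HSC, from 15 of 16 cells to 10 of 26. Pik3r1, a regulatory subunit of PI3-kinase, was higher in HSC by 3.42. Igfbp4, another binding protein, was on in 7 of 7 HEC and 26 of 26 HSC, so the binding proteins did not go together.

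Of 18 genes that maintain or erase imprints, 13 were measured. Against HEC, E10.5 clusters were higher for 8, where 43.1% of all measured genes were, and lower for 0, where 15.7% were. Dnmt3b, a DNA methyltransferase, was higher by 6.56, with 4 of 7 HEC and 28 of 28 cluster cells above background. From E10.5 to E12.5 clusters 9 were lower, where 39.9% of all measured genes were, and 0 higher, where 5.47% were. The lower genes included Uhrf1, which brings DNMT1 to replicating DNA, by -4.21, and Dnmt3b by -3.73. In that comparison 15 of 16 S-phase genes were lower as well. Trim28, the partner of ZFP57, was above background in all 14 endothelial cells, all 28 E10.5 cluster cells and 24 of 26 HSC. Methylation itself was not measured.

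Of 13 genes listed as related to the members, among them Notch receptors, 8 were measured. The receptor genes Notch4 and Notch1, and Maged2 and Maged1, were lower in E10.5 clusters than in HEC, where 15.7% of all measured genes were lower. They differed by -10.14, -6.17, -5.69 and -5.32. Plagl2, a relative of Plagl1, was higher by 2.51 and was on in 28 of 28 cells of E10.5 clusters. Of the CDK inhibitors other than Cdkn1c, 4 of 6 were measured. Cdkn2d was higher in E10.5 clusters than in HEC by 4.29 and Cdkn1a by 1.91, where 43.1% of all measured genes were higher. Cdkn1c was lower.

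The genes most like each member were found by the Pearson correlation over 84 cells, which share differences between populations, and the 2 highest are given. Mest went with Cldn5 and Kdr, both at r = 0.92. After each population's mean was removed these were 0.78 and 0.74, and without the 6 cells that went against the sort 0.17 and 0.27 over 78 cells, so the likeness within populations rests on those cells. Igf2 went with Fn1 (0.73) and Esam (0.72), Plagl1 with Pxdn (0.79) and Fermt2 (0.78), and Cdkn1c with Cav1 (0.61) and Crip2 (0.60). Peg3 went with Lamb1 (0.65) and Sulf2 (0.63), Meg3 with Adcy4 (0.59) and Col4a2 (0.58), and Ndn with Calcrl (0.60) and Adgrl4 (0.56). Grb10 had its highest values with Col4a1 (0.48) and Kdr (0.47), and Dlk1 with Zfp2 (0.54) and Ttc38 (0.47). With population means removed, Igf2 and Fn1 went at 0.58, Plagl1 and Pxdn at 0.58, Dlk1 and Zfp2 at 0.53, Meg3 and Adcy4 at 0.43 and Ndn and Calcrl at 0.43. Cdkn1c and Cav1 went at 0.30, Peg3 and Lamb1 at 0.28 and Grb10 and Col4a1 at 0.20. Without the 6 cells Plagl1 and Pxdn went at 0.42 and Grb10 and Col4a1 at 0.087, an alternative chosen after the values were seen.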

How the data were processed

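Each of 85 single cells was hybridised to 1 Affymetrix mouse array of 45101 probe sets. The deposited log2 values came from GCRMA, run by the authors with affy according to the labels of the submission (per the submitters' processing notes). Versions, and any scaling done afterwards, are not given in the sources used here. Values ran from 2.19 to 17.86, and the medians of the columns from 2.20 to 2.42. GCRMA subtracts a sequence-based background, so low values pile up near the lower bound, and differences of low genes are compressed. The number of arrays limits the precision.

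Probe sets were named from the platform annotation: 34958 had 1 symbol, 932 several and 9211 were not listed. A gene was read from its probe set with the largest mean, taken over population means. Names, neighbours and promoters came from RefSeq (GRCm38.p6). The planned results were worded for 10 members, but 9 had a probe set of their own. A pair of nearly identical arrays (r above 0.95) were averaged. Differences are of mean log2 values over cells, in Python 3.11.15 with numpy 2.4.6, pandas 2.3.3 and scipy 1.17.1, checked on simulated data. No test was made, because a population is 1 sample. Named genes were the members, for each other list the measured genes with a difference of 1 or more (at most the 6 largest each way), and the 2 genes most alike to each member. Alternatives were other scalings, probe-set summaries, thresholds, medians over cells, no averaging, and cells left out. The members and lists were chosen with earlier results of these data known.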

Additional observations from a re-analysis of the deposited data

Results flagged for a closer look

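In groups of 4 to 10 cells, which are EC and HEC, a cell whose gap to the rest was large against the group's range was marked by Dixon's criterion. In normal values chance marks about 1 in 20 groups, and 5 of 20 were marked. These values pile up near the lower bound and most marks fall on 1 cell, so these rates cannot be compared. EC cell 3 was the lowest of 7 for Igf2 (3.0, others 11.56 to 15.02), Mest (2.32, others 12.22 to 14.94), Plagl1 (2.33, others 14.05 to 15.64) and Grb10 (2.32, others 9.0 to 13.61). This is the cell with 2 of 12 endothelial markers and 5 of 7 germ cell markers above background. HEC cell 3 was the highest of 7 for Dlk1 (5.06, others 2.32 to 2.35), and it was the cell with all 9 members above background.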

How the results depend on the processing

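No paired analysis was possible because the replicate numbers only name cells, a population is 1 sample and no result comes from a test. Under the alternatives 16 summary values moved and 191 did not. Of the values of single genes 4 reversed, 14 moved by more than the spread over cells, and 622 moved by less, which is a wide limit here. Of 60 differences, 48 kept their call with medians over cells, 51 with quantile normalization, 53 with the mean of all probe sets, 55 with the equal-median shift, 57 without the 6 cells and 59 with no arrays averaged. The count of members higher in HEC than in EC was 3, in place of 6, after each cell was shifted to an equal median signal, with quantile normalization, with medians over cells, and without the 6 cells whose genes go against the sort. Those scalings moved the median of all genes from 0.82 to -0.15 and 0.00. The count of members lower was 0, in place of 1, with the mean of all probe sets and with medians over cells. From E10.5 to E12.5 clusters 1 member was higher with quantile normalization, and the count of lower members was 0 with the mean of all probe sets and 1 with medians over cells. The median from HEC to E10.5 clusters was -2.65 with the mean of all probe sets, which includes probe sets above background in no cell, and -8.48 with medians over cells. The median from HEC to HSC was -1.83 with the mean of all probe sets, and that from E12.5 clusters to HSC 0.056 with medians over cells. Plagl1 reversed from EC to HEC, to -0.12 with medians over cells and -0.46 without the 6 cells or without EC cell 3, and from E10.5 to E12.5 clusters to 0.017 with medians over cells. Leaving out each EC and HEC in turn gave a Plagl1 difference of -0.46 to 1.75 from EC to HEC. It gave medians of 0.35 to 2.26 from EC to HEC, with 3 to 7 members higher and 0 to 1 lower (0 without HEC cell 2 or 4). The medians were -7.78 to -5.85 from HEC to E10.5 clusters, with 8 lower throughout, and -4.91 to -4.35 from HEC to HSC, with 7 to 8 lower. Except where a clause names it, the cause was not tested.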
